A study of Mus musculus with 12 samples.

Results

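The deposited RNA-Seq table of the liver was examined for 4 genes chosen by name: Pdcd1, which encodes the receptor PD-1, Cd274 and Pdcd1lg2, which encode its ligands PD-L1 and PD-L2, and Cd80, which encodes a costimulatory ligand that also binds PD-L1. They are 4 of the 25078 genes in the table, and all 4 passed the filter on low counts in every comparison. The libraries hold donor T cells sorted as CD4+ or CD8+ from the liver of lethally irradiated WT BALB/c recipients on day 6 after hematopoietic cell transplantation (HCT) from C57BL/6 donors, together with T cell-depleted bone marrow from WT C57BL/6 mice that every group received. Donor T cells came from 3 genotypes: WT, STAT3ko, and STAT3ko PD-1ko. STAT3ko donors carried floxed Stat3 alleles and Cre driven by the CD4 promoter, so that the deletion is limited to the T lineage and is present in CD4+ and CD8+ T cells alike. STAT3ko PD-1ko donors carried the same alleles on a germline PD-1-/- background, so that PD-1 is missing from every cell of the T cell donor and not only from its T lineage. There was no group with the PD-1 deletion alone, so that a comparison of STAT3ko PD-1ko with WT carries both deletions. Each library was made from cells of 3 recipients that were combined, and each of the 6 groups has 2 such libraries, so that p-values measure the spread between pools. Ages of the animals were not given in the sources used here.

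PD-1 is an inhibitory receptor that T cells put on their surface after antigen stimulation. When PD-L1 or PD-L2 engages it, its cytoplasmic tail recruits the phosphatases SHP-1 and SHP-2, which dampen signals from the T cell receptor and from the costimulatory receptor CD28. PD-L1 is made by many cell types and rises with interferon-gamma, whereas PD-L2 is mostly known from dendritic cells, macrophages, and some activated T cells. CD80 binds CD28 and CTLA-4 on a facing cell, and it can bind PD-L1 on its own membrane, which keeps PD-L1 from PD-1. In graft-versus-host disease the liver is a main target tissue, and T cells in it meet PD-L1 on parenchymal cells. The values below concern only the transcripts in the T cells themselves.

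Libraries held 21676125 to 24551477 counts, with a median of 23442480. Levels are given as CPM, the count divided by the library total and scaled to a fixed total, after TMM scaling over the 12 libraries. The sorted populations carried the transcripts of their labels. The 8 T cell markers summed to 3830 to 5540 CPM, led by Thy1 at 1390 to 1960 CPM. Their sums were lowest in the STAT3ko PD-1ko CD8+ T cells, at 3830 and 3900 CPM. Cd4 was at 1240 to 1890 CPM in the CD4+ libraries, lowest in STAT3ko PD-1ko (1320 and 1240 CPM), and at 0.356 to 2.73 CPM in the CD8+ libraries. Cd8a of the CD8+ libraries was at 1190 and 1340 CPM in WT, 1020 and 1180 in STAT3ko, and 595 and 589 in STAT3ko PD-1ko. The Cd8b1 values were 1030 and 1060, 1040 and 1180, and 554 and 584 CPM. The CD4+ libraries held Cd8a at 0.424 to 5.64 CPM, highest in STAT3ko PD-1ko replicate 2. Markers of other cells were low or led by genes that T cells also express. The 7 B cell markers summed to 1.67 to 14.7 CPM, led by Cd79b, and Ms4a1 was at 0 in all 12 libraries. The 10 hepatocyte markers summed to 0.895 to 3.79 CPM, led by Apoa2. The 9 endothelial and stellate markers summed to 111 to 198 CPM, nearly all of it Pecam1 at 110 to 198 CPM. The 5 NK cell markers summed to 14.7 to 91.2 CPM, led by Klrb1c, with Klra8 at 0 in all 12 libraries. In CD8+ T cells their sums were 85.9 and 91.2 CPM in WT, 66.2 and 89.7 in STAT3ko, and 48.8 and 31.2 in STAT3ko PD-1ko.

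The sums of the macrophage and dendritic cell lists differed by genotype, and in each list 1 gene that T cells also express carried most of the difference. The 12 macrophage and monocyte markers summed to 549 and 454 CPM in WT CD4+ T cells, 344 and 269 CPM in STAT3ko, and 59.7 and 34.5 CPM in STAT3ko PD-1ko. In CD8+ T cells these sums were 391 and 484, 203 and 261, and 60.1 and 35.2 CPM. Most of each sum above 200 CPM was Ccr2, a chemokine receptor of monocytes and activated T cells. The other 11 markers summed to 9.41 and 17.9 CPM in WT, 7.3 and 13.7 CPM in STAT3ko, and 9.61 and 11.5 CPM in STAT3ko PD-1ko CD4+ T cells, and to 30.2 and 38, 27.8 and 33.9, and 17.9 and 19.6 CPM in CD8+ T cells, led by Cd68. Adgre1, which encodes the macrophage antigen F4/80, did not exceed 0.622 CPM and Csf1r did not exceed 1.31 CPM in any library. The sum of the 10 dendritic cell markers went from 73.5 and 68 to 11.4 and 13.9 CPM in CD4+ and from 394 and 366 to 30.1 and 23.4 CPM in CD8+ T cells between WT and STAT3ko PD-1ko. Their most abundant gene was Itgax, an integrin chain found on dendritic cells and on activated CD8+ T cells, and Cd209a and Siglech were at 0 in all 12 libraries. Without Itgax the order of the group means was the opposite in CD4+ T cells, where the other 9 markers summed to 3.05 and 5.76 CPM in WT, 4.47 and 6.54 CPM in STAT3ko, and 6.41 and 8.18 CPM in STAT3ko PD-1ko. Of these, H2-Ab1, a class II major histocompatibility gene, was at 1.41 and 2.46, 2.31 and 3.42, and 4.67 and 5.6 CPM. The class II genes H2-Aa and H2-Eb1 of the same list did not share this order. H2-Aa was at 0.591 and 1.31 CPM in WT and at 0.346 and 0.397 CPM in STAT3ko PD-1ko CD4+ T cells. H2-Eb1 was at 0.455 and 1.06 CPM and at 0.519 and 0.477 CPM. In CD8+ T cells the 9 summed to 1.91 to 3.35 CPM over the 6 libraries.

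Libraries of 1 group also differed by their replicate number. Cd274 was higher in replicate 1 than in replicate 2 in 6 of 6 groups, which was the case for Pdcd1 in 4, for Cd80 in 3, and for Pdcd1lg2 in 2. By ratio the gap was widest for Cd274 in STAT3ko CD8+ T cells, at 129 against 55.5 CPM. In bulk samples such as these, fewer cells that express a gene and less RNA per cell cannot be told apart. For 1 gene taken alone, exact permutation of 2 against 2 libraries gives a p of at least 0.333 (2-sided). Tests therefore come from edgeR's quasi-likelihood fit across all genes, with Benjamini-Hochberg adjustment and a threshold of 0.05.

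The targeted genes were measured first. Stat3 was at 369 and 467 CPM in WT CD4+ T cells, at 140 and 164 CPM in STAT3ko, and at 157 and 219 CPM in STAT3ko PD-1ko. The CD8+ values were 397 and 384, 149 and 136, and 154 and 235 CPM. Every deleted library was therefore below every WT library of its subset, but 2970 to 5758 counts of Stat3 remained in each of the 8 libraries. The quasi-likelihood test called the decrease in STAT3ko PD-1ko against WT, with a log2 fold change of -1.13 (SE 0.22, adjusted p = 0.018) in CD4+ and -1 (SE 0.2, adjusted p = 0.0177) in CD8+ T cells. In STAT3ko against WT the log2 fold change was -1.46 in both subsets and did not pass, with adjusted p of 0.055 for CD4+ and 0.108 for CD8+ T cells. With the replicate number as a block in CD4+ T cells it was -1.45, with an adjusted p of 0.00197. Reads were counted per gene and not per exon, so that the remaining counts do not show which part of the gene they came from.

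Per exon length, which allows genes to be set beside each other, Pdcd1 was the most abundant of the 4 transcripts in WT and STAT3ko T cells. Its mean was 125 RPKM in WT CD4+, 151 in STAT3ko CD4+, 177 in WT CD8+, and 228 in STAT3ko CD8+ T cells, which placed it between the 96.2 and the 98.5 percentile of the 12334 genes that passed the filter over the 12 libraries. Cd274 followed, at 14.3 to 39.4 RPKM over the 6 groups and between the 59.5 and the 82.7 percentile. Pdcd1lg2 was at 6.94 to 14.1 RPKM, between the 42.5 and the 58.5 percentile, and Cd80 at 4.93 to 10.5 RPKM, between the 36.6 and the 52 percentile. In the STAT3ko PD-1ko groups Pdcd1 stood at the 68.7 percentile in CD4+ and at the 83.7 percentile in CD8+ T cells. Per length the order of the means was Pdcd1, Cd274, Pdcd1lg2, Cd80 in 5 of the 6 groups, and in STAT3ko PD-1ko CD4+ T cells Cd274 at 25.6 RPKM stood above Pdcd1 at 21 RPKM.

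**Figure D1:**
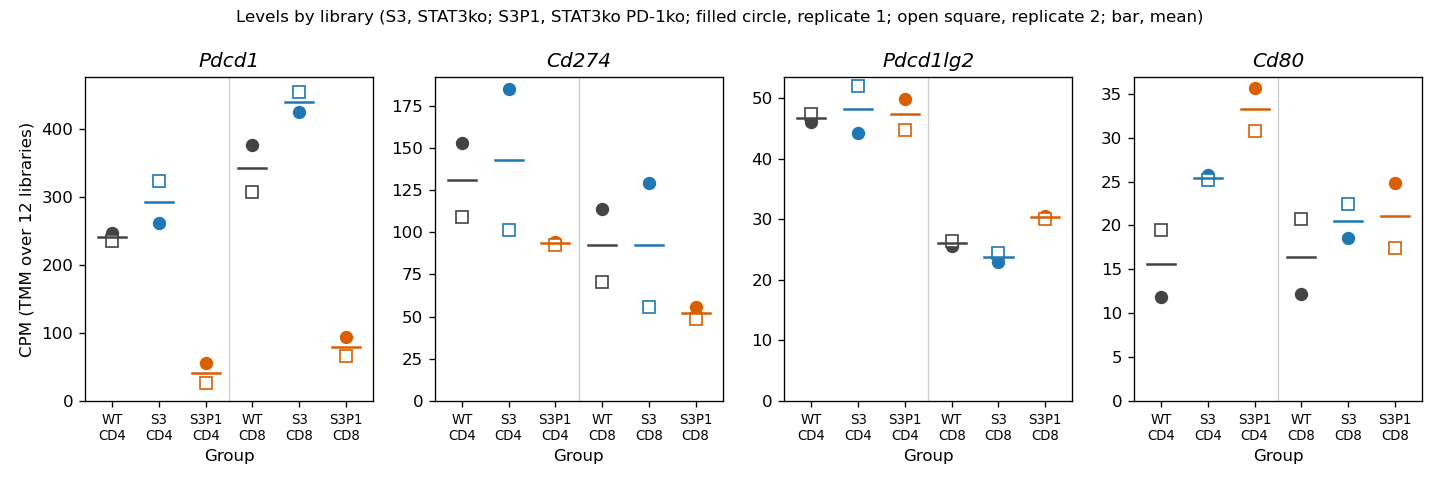
Levels of Pdcd1, Cd274, Pdcd1lg2, and Cd80 in CPM (linear axes from 0) by group, with 1 symbol per library (filled circle, replicate 1; open square, replicate 2) and a bar at the group mean. Pdcd1 is lowest in both STAT3ko PD-1ko groups, Cd274 is higher in replicate 1 in all 6 groups, Pdcd1lg2 separates CD4+ from CD8+ libraries, and Cd80 in CD4+ T cells lies lowest in WT and highest in STAT3ko PD-1ko.

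Pdcd1 lies on mm10 chr1 at 94038305-94052553 on the minus strand, with 5 exons and an exon length of 1930 bases. It was at 247 and 235 CPM in WT CD4+ T cells, at 261 and 323 CPM in STAT3ko, and at 55.1 and 26 CPM in STAT3ko PD-1ko. The CD8+ libraries of the 3 genotypes held it at 376 and 307, 424 and 454, and 93.6 and 65.6 CPM. The groups of a subset did not overlap, with STAT3ko highest and STAT3ko PD-1ko lowest in both. By group mean the order was STAT3ko CD8+ (439 ± 21.4, SD, n = 2), WT CD8+ (342 ± 48.5), STAT3ko CD4+ (292 ± 43.4), WT CD4+ (241 ± 8.05), STAT3ko PD-1ko CD8+ (79.6 ± 19.8), and STAT3ko PD-1ko CD4+ (40.6 ± 20.6). Of the neighbours in that order, only WT CD8+ and STAT3ko CD4+ T cells overlapped in their libraries.

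The quasi-likelihood test called Pdcd1, the gene deleted in these donors, lower in STAT3ko PD-1ko than in WT, with a log2 fold change of -2.55 (SE 0.33, adjusted p = 0.00566) for CD4+ and -2.09 (SE 0.19, adjusted p = 0.00243) for CD8+ T cells. Against STAT3ko it was -2.83 (SE 0.33, adjusted p = 0.00724) and -2.45 (SE 0.19, adjusted p = 0.00206). Calls against WT held without any 1 of the 4 libraries compared. Calls against STAT3ko were lost without STAT3ko PD-1ko replicate 2, at -2.40 (adjusted p = 0.0701) in CD4+ and -2.23 (adjusted p = 0.0504) in CD8+ T cells. The 4 libraries with the deletion still held 655 to 2117 counts of Pdcd1 each.

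In STAT3ko T cells, whose Pdcd1 locus is intact, the libraries lay above those of WT in both subsets, but the difference did not pass the test. The log2 fold change was 0.28 for CD4+ (95% interval -0.44 to 1.01, adjusted p = 0.841) and 0.36 for CD8+ T cells (95% interval -0.06 to 0.78, adjusted p = 0.534). Groups that do not overlap are common here: in STAT3ko against WT this holds for 38.2% of the genes tested in CD4+ and 43.6% in CD8+ T cells.

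Of the ligands, Cd274 lies on mm10 chr19 at 29367438-29388094 and Pdcd1lg2 at 29410919-29472927, both on the plus strand, with 7 and with 5 or 6 exons by transcript and exon lengths of 3638 and 3415 bases. They are 22824 bases apart, with 0 genes between them. Because Cd274 and Pdcd1lg2 are neighbours in the genome, the 250 bases before each start (RefSeq, GRCm38.p6, plus strand) are shown in lower case, and capitals mark a match to a motif searched for STAT proteins, TTC and GAA with 4 bases of any kind between them.
Cd274, chr19:29367188-29367437: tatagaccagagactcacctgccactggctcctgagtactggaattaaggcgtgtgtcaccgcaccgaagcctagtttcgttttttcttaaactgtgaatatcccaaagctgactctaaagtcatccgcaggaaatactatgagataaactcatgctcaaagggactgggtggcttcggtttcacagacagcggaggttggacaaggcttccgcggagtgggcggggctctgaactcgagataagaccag
Pdcd1lg2, chr19:29410669-29410918: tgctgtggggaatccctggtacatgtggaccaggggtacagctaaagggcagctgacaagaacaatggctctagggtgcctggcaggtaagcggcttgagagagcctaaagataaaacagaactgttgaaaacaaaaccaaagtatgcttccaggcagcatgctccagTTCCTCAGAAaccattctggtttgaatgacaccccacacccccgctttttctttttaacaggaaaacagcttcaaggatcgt
The capitals in the Pdcd1lg2 sequence, TTCCTCAGAA, begin 82 bases before the start. The motif reads the same on both strands and is held by 6.95% of 32851 promoters in windows of the same length, from 250 bases before to 50 after the start. The windows of Pdcd1, Cd274, and Cd80 did not hold these letters. None of the 4 windows held, on either strand, TTC and GAA with 3 bases between them (8.3% of promoters), the other spacing searched for STAT proteins. The same was true of GAAA repeated after 2 bases (3.44%), searched for IRF proteins, and of TGACTCA (5.2%), searched for AP-1. A match is a run of letters, and binding was not measured.

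Cd274 was at 153 and 109 CPM in WT CD4+ T cells, at 185 and 101 CPM in STAT3ko, and at 94.3 and 92.4 CPM in STAT3ko PD-1ko. Among CD8+ T cells the values were 114 and 70.4, 129 and 55.5, and 55.4 and 48.5 CPM. WT and STAT3ko libraries overlapped in both subsets, and the STAT3ko PD-1ko libraries lay below all of them within a subset, by a narrow margin of 55.4 against 55.5 CPM in CD8+ T cells. By group mean the order was STAT3ko CD4+ (143 ± 59.4, SD, n = 2), WT CD4+ (131 ± 31.3), STAT3ko PD-1ko CD4+ (93.3 ± 1.34), WT CD8+ (92.1 ± 30.8) and STAT3ko CD8+ (92.1 ± 51.9) level with each other, and STAT3ko PD-1ko CD8+ (52 ± 4.91). Neighbours in that order overlapped, except for WT CD4+ with STAT3ko PD-1ko CD4+ T cells and for the lowest group, STAT3ko PD-1ko CD8+ T cells.

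No genotype comparison of Cd274 passed the test without a replicate block over the 6 libraries of a subset. In STAT3ko against WT the log2 fold change was 0.13 for CD4+ (SE 0.28, adjusted p = 0.93) and 0.00 for CD8+ T cells (SE 0.38, adjusted p = 1). Against WT, STAT3ko PD-1ko T cells gave -0.47 (95% interval -1.12 to 0.19, adjusted p = 0.327) and -0.82 (95% interval -1.71 to 0.08, adjusted p = 0.18). Against STAT3ko they gave -0.6 (95% interval -1.26 to 0.06, adjusted p = 0.205) and -0.81 (95% interval -1.7 to 0.08, adjusted p = 0.177). Each of these 4 intervals included 0. The replicates that share a number gave ratios of STAT3ko PD-1ko to WT of 0.616 and 0.848 in CD4+ and 0.487 and 0.689 in CD8+ T cells, all below 1. Without STAT3ko replicate 2 the comparison with STAT3ko passed, at -0.96 (adjusted p = 0.042) in CD4+ and -1.30 (adjusted p = 0.031) in CD8+ T cells, and without STAT3ko replicate 1 it was -0.11 and -0.09. In STAT3ko PD-1ko against WT CD8+ T cells the fit of only the 4 libraries compared called it lower (-0.82, adjusted p = 0.0349), and so did the fit with the replicate number as a block (-0.76, adjusted p = 0.0497), in which 24.7% of all genes were called. In STAT3ko against WT CD8+ T cells, leaving out 1 library moved the value of 0.00 to between -0.73 and 0.48. Of the markers of antigen-presenting cells, the macrophage list without Ccr2 was lowest in STAT3ko PD-1ko libraries among CD8+ T cells, whereas the dendritic cell list without Itgax, led by H2-Ab1, had its highest mean in STAT3ko PD-1ko among CD4+ T cells. Their part in the values of Cd274 was not tested.

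Pdcd1lg2 was at 46 and 47.4 CPM in WT CD4+ T cells, at 44.3 and 52 CPM in STAT3ko, and at 49.9 and 44.8 CPM in STAT3ko PD-1ko. The 3 genotypes overlapped. In CD8+ T cells it was at 25.6 and 26.4, 23 and 24.5, and 30.5 and 30.1 CPM, with STAT3ko lowest and STAT3ko PD-1ko highest and no overlap. By group mean the order was STAT3ko CD4+ (48.1 ± 5.45, SD, n = 2), STAT3ko PD-1ko CD4+ (47.4 ± 3.58), WT CD4+ (46.7 ± 0.999), STAT3ko PD-1ko CD8+ (30.3 ± 0.294), WT CD8+ (26 ± 0.581), and STAT3ko CD8+ (23.7 ± 1.06).

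In CD4+ T cells the log2 fold change of Pdcd1lg2 was 0.05 in STAT3ko against WT (95% interval -0.32 to 0.42), 0.04 in STAT3ko PD-1ko against WT (-0.33 to 0.41), and -0.01 in STAT3ko PD-1ko against STAT3ko (-0.37 to 0.36). Of the 4 genes it had the tightest intervals in this subset. The CD8+ values were -0.14 (95% interval -0.44 to 0.16, adjusted p = 0.755), 0.23 (-0.07 to 0.53, adjusted p = 0.255), and 0.36 (0.07 to 0.66, adjusted p = 0.0896). The last of these, STAT3ko PD-1ko against STAT3ko, had an unadjusted p of 0.0235 and did not pass over all genes.

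The levels of the neighbours were also set against each other, without a test of the difference. The ratio of Cd274 to Pdcd1lg2 per exon length was 1.51 to 1.93 in the 4 STAT3ko PD-1ko libraries and 1.83 to 5.27 in the other 8. The ranges overlapped, and the higher values were in replicate 1 libraries of WT and STAT3ko.

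Cd80 lies on mm10 chr16 at 38458933-38495958 on the plus strand, with an exon length of 3173 bases. It was at 11.8 and 19.5 CPM in WT CD4+ T cells, at 25.7 and 25.2 CPM in STAT3ko, and at 35.7 and 30.8 CPM in STAT3ko PD-1ko. The genotypes of this subset did not overlap, with WT lowest and STAT3ko PD-1ko highest. CD8+ T cells held it at 12.2 and 20.7, 18.6 and 22.4, and 24.8 and 17.4 CPM, and the genotypes overlapped. By group mean the order was STAT3ko PD-1ko CD4+ (33.3 ± 3.52, SD, n = 2), STAT3ko CD4+ (25.5 ± 0.358), STAT3ko PD-1ko CD8+ (21.1 ± 5.18), STAT3ko CD8+ (20.5 ± 2.63), WT CD8+ (16.4 ± 6.01), and WT CD4+ (15.6 ± 5.41). The last 4 of these overlapped with their neighbours among those 4, and STAT3ko PD-1ko CD8+ did not overlap with STAT3ko CD4+ T cells.

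As compared with WT CD4+ T cells, Cd80 was 2.15-fold higher in STAT3ko PD-1ko CD4+ T cells (log2 fold change 1.11, SE 0.25, 95% interval 0.52 to 1.69, adjusted p = 0.0294). The call was kept in 9 of 12 alternatives, and it was lost without WT replicate 1 (0.78, adjusted p = 0.0943), without STAT3ko PD-1ko replicate 1 (1, adjusted p = 0.153), and without STAT3ko PD-1ko replicate 2 (1.2, adjusted p = 0.137). In STAT3ko against WT it was 0.70 (SE 0.25, 95% interval 0.12 to 1.28, adjusted p = 0.364), and in STAT3ko PD-1ko against STAT3ko 0.40 (SE 0.25, adjusted p = 0.317), neither of which passed. For CD8+ T cells the 3 log2 fold changes were 0.31, 0.36, and 0.05, none of them called. CD80 is made by activated T cells but is best known from B cells, macrophages, and dendritic cells, so their markers were set beside it. In CD4+ libraries the B cell sums were 2.32 and 2.46 CPM in WT and 1.99 and 1.67 CPM in STAT3ko PD-1ko, and without Ccr2 the macrophage sums were 9.41 and 17.9 CPM in WT and 9.61 and 11.5 CPM in STAT3ko PD-1ko. Cd68 led these macrophage sums, at 8.27 and 8.68 CPM in WT and 8.57 and 10.3 CPM in STAT3ko PD-1ko. Clec4f, C1qa, and Csf1r did not follow Cd68. They were at 1.65, 1.78, and 1.31 CPM in WT replicate 2 and at 0.238, 0.0397, and 0.0794 CPM in STAT3ko PD-1ko replicate 2. The dendritic cell sums without Itgax had the same order of group means as Cd80. They were 3.05 and 5.76 CPM in WT, 4.47 and 6.54 CPM in STAT3ko, and 6.41 and 8.18 CPM in STAT3ko PD-1ko. H2-Ab1 was the most abundant gene in these sums, and the class II genes H2-Aa and H2-Eb1 did not share the order. The part of these cell markers in the difference in Cd80 was not tested.

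Over the 4 genes, 0 of 4 passed the test in STAT3ko against WT, in CD4+ T cells, where 0.334% of all genes tested were called, and in CD8+ T cells, where 0.0583% were. At an unadjusted p under 0.05 there was 1 of 4 in CD4+ T cells, Cd80, and 0 of 4 in CD8+ T cells, beside 1259 of the 11959 genes tested in CD4+ and 1315 of the 12002 in CD8+ T cells at that threshold, and DESeq2 called 0 of 4 in either. In STAT3ko PD-1ko against WT, 2 of 4 were called in CD4+ T cells, Pdcd1 lower and Cd80 higher, beside 12.9% of all genes (7.21% higher and 5.65% lower). For CD8+ T cells 1 of 4 was called, Pdcd1, beside 17.2% (9.01% higher and 8.21% lower). Against STAT3ko, Pdcd1 was the 1 of 4 called in each subset, beside 11.1% of all genes for CD4+ (6.05% higher and 5.03% lower) and 16.8% for CD8+ T cells (8.76% higher and 8.05% lower). Pdcd1 is the gene deleted in STAT3ko PD-1ko donors, so that its calls in these comparisons were set by the design. Apart from Pdcd1, the only call among the 4 genes in them was that of Cd80 against WT in CD4+ T cells. The comparisons that share WT or STAT3ko PD-1ko libraries are not independent of each other. Libraries of STAT3ko PD-1ko and WT were apart, without overlap, for 59.2% of genes in CD4+ and 59.7% in CD8+ T cells, against which the 3 of 4 members without overlap in CD4+ T cells (all but Pdcd1lg2) and 3 of 4 in CD8+ T cells (all but Cd80) are to be read. The deleted Pdcd1 is among these members in each subset. With the replicate number as a block, which pairs the CD4+ libraries across genotypes, the calls of the 4 genes in CD4+ T cells were the same, while the calls over all genes rose to 2.53%, 26%, and 26% in the 3 comparisons.

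**Figure D2:**
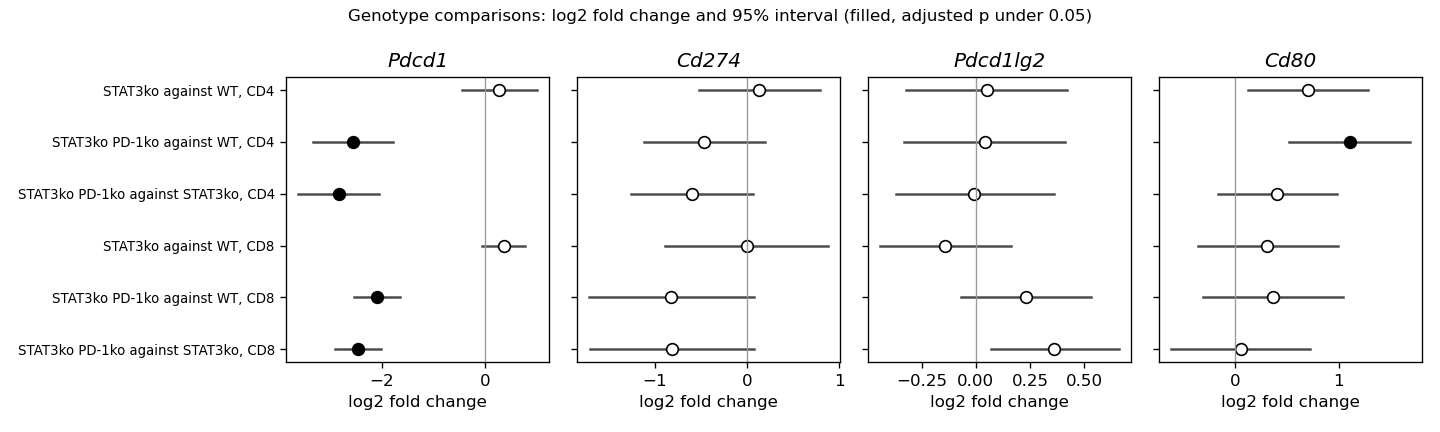
Log2 fold change of each gene (horizontal axes) in the 6 genotype comparisons (rows), with 95% intervals from the quasi-likelihood fit; filled symbols have an adjusted p under 0.05. Pdcd1 is filled in the 4 comparisons with STAT3ko PD-1ko, Cd80 in STAT3ko PD-1ko against WT in CD4+ T cells at 1.11, and no comparison of Cd274 or Pdcd1lg2 is filled.

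A genotype difference that is unlike in CD4+ and CD8+ T cells would appear as an interaction, which was fitted with the 12 libraries together. None of the 4 genes passed, with an adjusted p of 1 for each in all 3 interactions. Over all genes 0%, 0.00811%, and 0% were called in STAT3ko against WT, STAT3ko PD-1ko against WT, and STAT3ko PD-1ko against STAT3ko, with 228, 547, and 443 genes at an unadjusted p under 0.05. DESeq2 called 3, 75, and 19 genes, none of the 4 among them. With the pool of recipients as a block, 0, 84, and 22 genes were called, which is 0%, 0.681%, and 0.178%, and again none of the 4, and the lowest adjusted p was that of Cd80 in STAT3ko PD-1ko against WT (-0.74, adjusted p = 0.0996). The higher Cd80 in STAT3ko PD-1ko was called in CD4+ and not in CD8+ T cells, but its difference between the subsets did not pass.

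CD8+ T cells were next compared with CD4+ T cells of the same genotype. Pdcd1lg2 was lower in CD8+ T cells of every genotype, with a log2 fold change of -0.84 in WT (SE 0.12, adjusted p = 0.00206), -1.02 in STAT3ko (SE 0.13, adjusted p = 0.000842), and -0.64 in STAT3ko PD-1ko (SE 0.12, adjusted p = 0.0168). It was the 1 of 4 called in each, beside 10.5%, 9.62%, and 4.14% of all genes. The last call was lost without any 1 of its 4 libraries, with log2 fold changes of -0.71 to -0.57 and adjusted p of 0.0685 to 0.156, whereas those in WT and STAT3ko held. Pdcd1 was higher in CD8+ T cells without passing, at 0.50 (adjusted p = 0.373), 0.59 (adjusted p = 0.282), and 0.97 (adjusted p = 0.118), and Cd274 was at -0.51 (adjusted p = 0.532), -0.64 (adjusted p = 0.403), and -0.84 (adjusted p = 0.365).

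Both subsets came from the same livers, and the libraries with the same number deviated together, so that the pool of recipients was also entered as a block. The pool was taken from the replicate number, which no source used here ties to a pool. For its T cell receptor sequencing the study describes batches of combined mice, without linking them to these numbers. With this block, Pdcd1 was called higher in CD8+ T cells at 0.50 in WT (SE 0.13, adjusted p = 0.0251), 0.60 in STAT3ko (SE 0.13, adjusted p = 0.0117), and 1.04 in STAT3ko PD-1ko (SE 0.14, adjusted p = 0.00197). Cd274 was called lower at -0.53 (SE 0.11, adjusted p = 0.00796), -0.69 (SE 0.11, adjusted p = 0.00237), and -0.85 (SE 0.11, adjusted p = 0.00167). Pdcd1lg2 was called lower in all 3, and Cd80 was called lower in STAT3ko PD-1ko at -0.67 (SE 0.12, adjusted p = 0.00637). That made 3 of 4 called in WT, 3 of 4 in STAT3ko, and 4 of 4 in STAT3ko PD-1ko, beside 24.3%, 24.9%, and 14.4% of all genes.

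The ratio of CD8+ to CD4+ T cells within each of the 6 pools was taken as a further view, chosen after the data were seen. Over all genes 20.2% were higher and 21% lower in CD8+ T cells in every pool. Pdcd1 was at ratios of 1.31 to 1.62 in the 4 pools of WT and STAT3ko, with a mean log2 ratio of 0.55 ± 0.14 (SD, n = 4, exact sign-flip permutation test, 2-sided, p = 0.125, the smallest that 4 pools allow). In the STAT3ko PD-1ko pools the ratio, of up to 2.52, is that of the Pdcd1 counts that remained, whose origin was not tested. Cd274 was lower in 6 of 6 pools, at ratios of 0.525 to 0.744, with a mean log2 ratio of -0.69 ± 0.20 (SD, n = 6, exact sign-flip permutation test, p = 0.0312). Pdcd1lg2 was lower in 6 of 6 pools, at ratios of 0.471 to 0.671, with a mean log2 ratio of -0.83 ± 0.18 (exact sign-flip permutation test, p = 0.0312). Cd80 was lower in 4 of 6 pools, at ratios of 0.566 to 1.06, with a mean log2 ratio of -0.31 ± 0.36 (exact sign-flip permutation test, p = 0.125). The smallest p that 6 pools allow is 0.0312, 4 genes were tested in this way, and the p-values are not adjusted. In the 4 pools with an intact Pdcd1 locus the receptor was higher in CD8+ and both ligands were higher in CD4+ T cells. The shares over all genes given above are for agreement in 6 pools, and agreement in 4 is reached more easily.

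**Figure D3:**
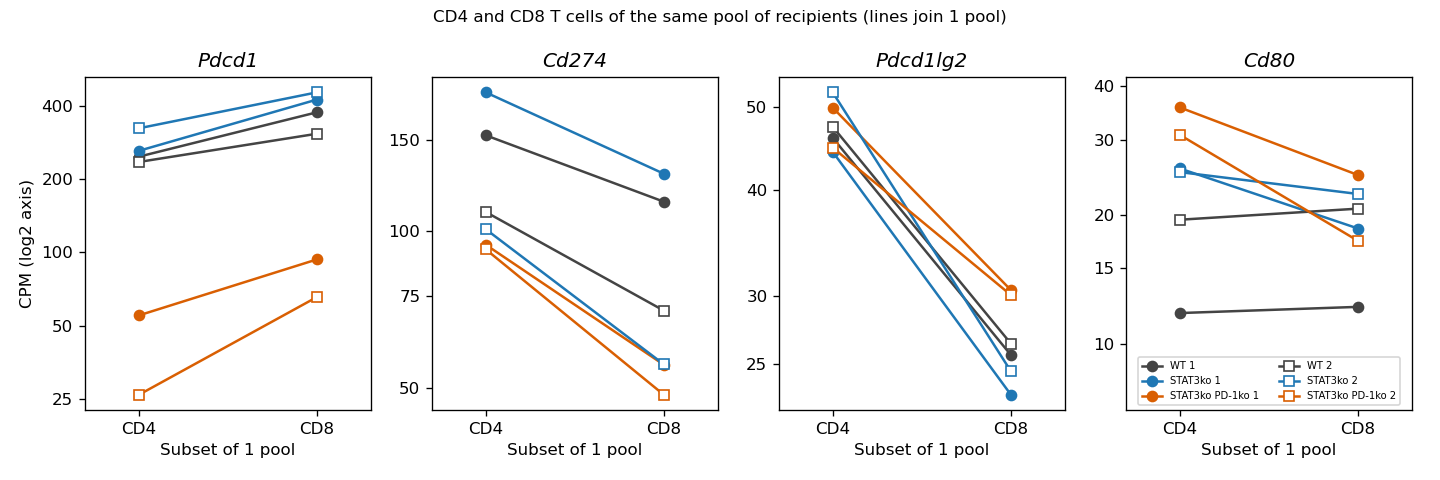
Level of each gene in CPM (log2 axes) in CD4+ and CD8+ T cells, with a line joining the libraries of 1 pool of recipients. All 6 lines rise for Pdcd1 and fall for Cd274 and Pdcd1lg2, and for Cd80 4 of 6 fall.

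The families of the receptor and ligands were described from lists, whose counts are to be read beside the share of all genes called: in STAT3ko PD-1ko against WT 12.9% in CD4+ T cells, or 26% with the replicate block, and 17.2% in CD8+ T cells. In STAT3ko against WT that share was 0.334% in CD4+ T cells, or 2.53% with the replicate block, and 0.0583% in CD8+ T cells. Of the 4 other CD28-family receptors, 0 were called in STAT3ko against WT in either subset, and with the replicate block Icos, a costimulatory receptor of helper T cells, was lower in CD4+ T cells (-0.89, adjusted p = 0.0147; -0.87, adjusted p = 0.268, without the block). In STAT3ko PD-1ko against WT, 2 of 4 fell in each subset. The log2 fold change of Icos was -1.3 (adjusted p = 0.0204) for CD4+ and -1.16 (adjusted p = 0.0139) for CD8+ T cells, and that of Btla, an inhibitory receptor, -1.08 (adjusted p = 0.0122) and -1.18 (adjusted p = 0.00859). Btla was also lower than in STAT3ko, at -0.88 (adjusted p = 0.0289) and -0.85 (adjusted p = 0.022). Cd28 was at -0.90 (adjusted p = 0.216) and -0.79 (adjusted p = 0.278) against WT, and in CD4+ T cells it fell with the block, at -0.84 (adjusted p = 0.00317). Ctla4, the inhibitory receptor for CD80, differed widely between the replicates of WT and of STAT3ko, at 1300 and 494 CPM in WT, 1520 and 363 CPM in STAT3ko, and 667 and 526 CPM in STAT3ko PD-1ko CD4+ T cells. In STAT3ko PD-1ko the 4 had a median log2 fold change against WT of -0.99 for CD4+ and -0.97 for CD8+ T cells, where that of all genes lay between -0.01 and 0.01. This median includes Cd28 and Ctla4, which did not pass without the block. In replicate 2 Ctla4 was higher in STAT3ko PD-1ko than in WT, at 526 against 494 CPM in CD4+ and 493 against 319 CPM in CD8+ T cells.

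Of the 6 other B7-family ligands and PD-L2 partners, 4 were measured well enough to test, and Vtcn1 was at 0 and Cd276 at no more than 0.0847 CPM in all libraries. None of the 4 rose in STAT3ko PD-1ko against WT, unlike Cd80 in CD4+ T cells. Vsir, which encodes the checkpoint molecule VISTA, fell, with -1.01 (adjusted p = 0.00696) for CD4+ and -0.79 (adjusted p = 0.00783) for CD8+ T cells. Cd86, which shares its receptors with CD80, was at 38.2 and 38.3 CPM in WT and 36.1 and 41.9 CPM in STAT3ko PD-1ko CD4+ T cells (0.05, adjusted p = 0.876). Cd86 of CD8+ T cells fell from 39.1 and 44.2 to 19.5 and 18.7 CPM (-1.12, adjusted p = 0.00651), and its interaction of -1.15 had an adjusted p of 0.129. In the same CD8+ libraries the macrophage markers without Ccr2, led by Cd68, summed to 30.2 and 38 CPM in WT and 17.9 and 19.6 CPM in STAT3ko PD-1ko. The B cell markers summed to 14.7 and 10.8 and to 6.32 and 5.47 CPM, nearly all of it Cd79b. Without Cd79b the other 6 B cell markers summed to 0.178 and 0.2 CPM in WT and to 0.398 and 0.367 CPM in STAT3ko PD-1ko. The part of these markers in the value of Cd86 was not tested. Icosl, the ligand of ICOS, was at -0.90 in CD4+ T cells (adjusted p = 0.124; -0.87, adjusted p = 0.0046, with the block). Rgmb, which encodes a PD-L2 partner, was called lower in CD4+ T cells, at -2.43 (adjusted p = 0.0257), from levels of only 0.122 to 2.29 CPM over the 12 libraries.

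**Figure D4:**
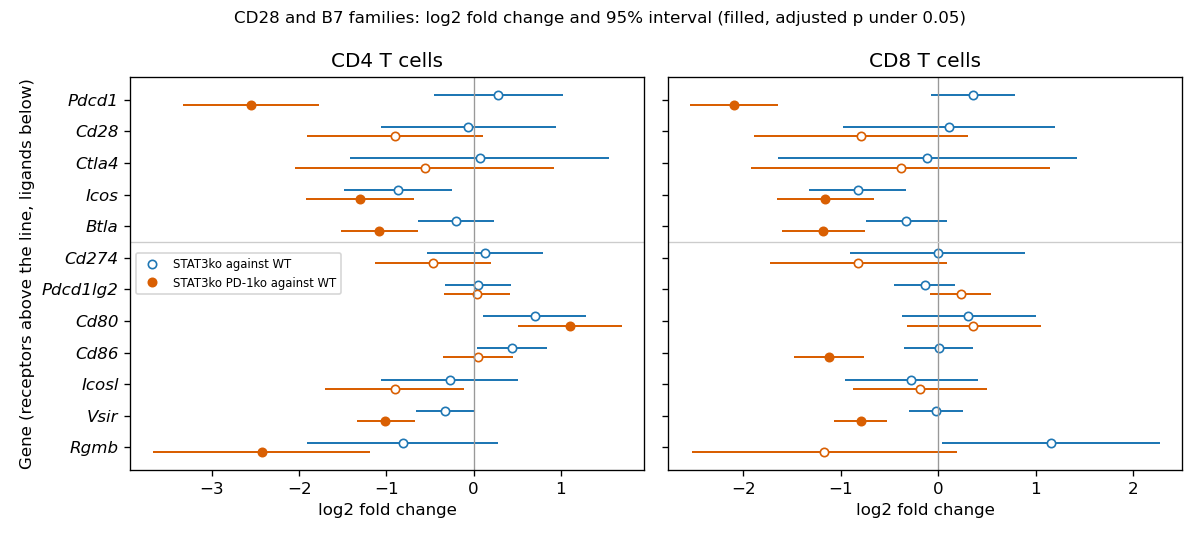
Log2 fold change against WT, with 95% intervals, of the CD28-family receptors (above the line) and B7-family ligands (below it) in CD4+ (left) and CD8+ (right) T cells; blue, STAT3ko; orange, STAT3ko PD-1ko; filled, adjusted p under 0.05. Pdcd1, Icos, Btla, and Vsir are filled below 0 in STAT3ko PD-1ko in both subsets, and Cd80 in CD4+ T cells is the only filled symbol above 0.

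Of 14 genes of PD-1 and T cell receptor proximal signaling, 0 were called in STAT3ko against WT, and with the replicate block 1 rose in CD4+ T cells, Pik3r1 (0.56, adjusted p = 0.0389). In that comparison 0.334% of all genes were called in CD4+ T cells, 2.53% with the block, and 0.0583% in CD8+ T cells. With both genes deleted, 2 of 14 fell against WT in CD4+ T cells, a share near the 12.9% of all genes called, Pik3cd, a PI3-kinase subunit (-0.83, adjusted p = 0.0245), and Prkcq, a protein kinase C (-0.64, adjusted p = 0.0263). In CD8+ T cells, where 17.2% of all genes were called, 6 of 14 fell, led by Pik3cd (-0.83), Fyn (-0.81), and Prkcq (-0.68). Ptpn11 and Ptpn6, which encode the phosphatases SHP-2 and SHP-1, were called in neither. In CD4+ T cells with the replicate block, where 26% of all genes were called, 1 rose, Ptpn11 (0.35, adjusted p = 0.042), and 6 fell. Of 17 regulators of Pdcd1 transcription, Tox rose in STAT3ko against WT in CD4+ T cells (1.09, adjusted p = 0.0413), beside the Pdcd1 value of 0.28 that did not pass. This call of Tox was kept in 6 of 12 alternatives, with adjusted p of 4.03e-07 to 0.187, and lost without WT replicate 1, WT replicate 2, or STAT3ko replicate 1, in the fit of only the 4 libraries (adjusted p = 0.161), and with limma at either pseudocount (adjusted p = 0.0501 and 0.0516). With the replicate block Satb1 also fell (-0.72, adjusted p = 0.0256). With both genes deleted, Tox rose against WT (1.05, adjusted p = 0.00806) and Bcl6 (-2.20, adjusted p = 0.00839) and Satb1 (-1.26, adjusted p = 0.00692) fell in CD4+ T cells, beside 12.9% of all genes called. In CD8+ T cells, beside 17.2% of all genes, 1 rose, Rbpj (0.51), and 5 fell, led by Bcl6 (-2.16), Satb1 (-0.87), and Notch1 (-0.70). With the replicate block 2 rose and 5 fell in CD4+ T cells. Of 16 tested genes of the interferon-gamma axis and regulators of PD-L1, 5 fell in CD4+ T cells, led by the targeted Stat3, Socs1 (-0.79, adjusted p = 0.0478), and Ifngr1, the interferon-gamma receptor (-0.73, adjusted p = 0.0241), and 4 in CD8+ T cells, led by Stat3, Socs1 (-0.77, adjusted p = 0.0295), and Jak1 (-0.71, adjusted p = 0.00738), and none rose. These counts include Stat3, which was deleted by design, and stand beside 12.9% of all genes called in CD4+ and 17.2% in CD8+ T cells. With the replicate block 7 of the 16 genes fell in CD4+ T cells, beside 26% of all genes called. The summed T cell markers, too, were lowest in the STAT3ko PD-1ko libraries of each subset. Single markers did not all follow the sum. Thy1 in CD4+ T cells was at 1540 and 1560 CPM in STAT3ko PD-1ko against 1390 and 1400 CPM in STAT3ko. Of the 14 genes of the 5 lists called in STAT3ko PD-1ko against WT in CD4+ T cells, 0 kept the call without either STAT3ko PD-1ko library, and of the 20 in CD8+ T cells 1 did without replicate 2, while 916 of 916 values of called list genes over all comparisons and alternatives kept their direction.

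As compared with STAT3ko, STAT3ko PD-1ko T cells showed fewer calls in these lists in CD4+ than in CD8+ T cells by count, a difference that was not tested, beside 11.1% and 16.8% of all genes. Of the 6 calls in CD4+ T cells 0 were kept without either STAT3ko PD-1ko library, and of the 16 in CD8+ T cells 0 were kept without STAT3ko PD-1ko replicate 2. Of the B7-family list Vsir fell in both (-0.68 and -0.77), and Cd86 (-1.12) and Rgmb (-2.32) in CD8+ T cells. Of the signaling list 2 fell in CD4+, Pik3r1 (-0.78) and Prkcq (-0.68), and 6 in CD8+ T cells, led by Pik3cd (-0.85), Prkcq (-0.81), and Pik3r1 (-0.78). Of the regulators of Pdcd1, Bcl6 (-1.33) was the 1 that fell in CD4+ T cells, and in CD8+ T cells Rbpj rose (0.91) while Nfatc1 (-0.65), Nfatc2 (-0.65), and Notch1 (-0.41) fell. Of the interferon-gamma list Jak1 fell in both (-0.58 and -0.81). The call of Notch1 was kept in 4 of 12 alternatives, those of Rgmb in CD8+ and Bcl6 in CD4+ T cells in 7 of 12, and the others named for this comparison in at least 8. Between subsets, Btla was lower in CD8+ than in CD4+ T cells of every genotype, as Pdcd1lg2 was, at -1.04, -1.15, and -1.12, and so were Bcl6 (-1.74, -2.17, and -1.69) and Satb1 (-1.07, -0.90, and -0.67). In STAT3ko PD-1ko the calls of Bcl6 and Satb1 were lost without any 1 of the 4 libraries, with adjusted p of up to 0.236 and 0.192, and that of Btla without CD4+ replicate 1 or CD8+ replicate 2, with adjusted p of up to 0.103. In WT that of Bcl6 was lost without CD4+ replicate 2 or CD8+ replicate 1, and that of Btla was lost without CD8+ replicate 1 in WT and in STAT3ko. Calls of Satb1 in WT and of Satb1 and Bcl6 in STAT3ko were kept without any 1 library. Icos (-1.08 and -1.03) and Icosl (-1.90 in each) were lower in CD8+ T cells of WT and STAT3ko. The call of Icos was lost without any 1 of the 4 libraries in WT and without CD4+ replicate 1, CD8+ replicate 1, or CD8+ replicate 2 in STAT3ko, and that of Icosl without CD4+ replicate 2 or CD8+ replicate 1 in both. Vsir (-0.49) and Rgmb (-2.06) were lower in WT and Cd86 (-1.03) in STAT3ko PD-1ko. Of the signaling list Cd247, the zeta chain of the T cell receptor complex (-0.69 and -0.74), and Lat, an adaptor (-0.44 and -0.54), were lower in WT and STAT3ko PD-1ko, Zap70, a kinase that binds the zeta chain (-0.45 and -0.41), in WT and STAT3ko, and Fyn (-0.51) in STAT3ko PD-1ko. Nfkb1 was lower in WT and STAT3ko (-0.84 and -0.74). Of the 13 list calls in WT 3 to 8 were kept without 1 library, of the 8 in STAT3ko 3 to 6, and of the 8 in STAT3ko PD-1ko 1 to 3. These list calls are to be read beside the 10.5%, 9.62%, and 4.14% of all genes called between subsets in the 3 genotypes. Jak2 was lower in all 3 genotypes (-0.81, -0.69, and -0.74), a call that was lost without CD8+ replicate 1 in STAT3ko and without CD4+ replicate 2 or CD8+ replicate 1 in STAT3ko PD-1ko. Tox was higher in WT CD8+ T cells (0.84, a call lost without CD4+ replicate 1 or CD8+ replicate 1). In WT, Pdcd1 was called higher with the pool block and not in the fit that called Tox. With the pool block Pdcd1 was also called higher in STAT3ko and STAT3ko PD-1ko, in which Tox was not called higher without the block.

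The genes whose levels ran most like those of each member were named over the 12 libraries, as a description: the libraries share genotypes, pools, and depth. Pdcd1 ran most like Dock10 (Pearson r = 0.973), a guanine nucleotide exchange factor, Plcb2 (0.97), a phospholipase C, and Acss1 (0.962), a mitochondrial acetyl-CoA synthetase. Plcb2 shows the shared pattern: it was at 26 and 32.8 CPM in WT CD4+ T cells and at 8.74 and 6.95 CPM in STAT3ko PD-1ko. Pdcd1 was at 26 to 93.6 CPM in the STAT3ko PD-1ko libraries, in which it is deleted, and at 235 to 454 CPM in WT and STAT3ko libraries. Its profile over the 12 libraries is thus largely that of the deletion, and any gene lower in STAT3ko PD-1ko T cells can rank high. Cd274 ran most like Ier5 (0.963), an immediate early gene, Itpkc (0.96), an inositol trisphosphate kinase, and Rab6a (0.959), a Golgi GTPase. Ier5 was at 283 and 168 CPM in WT CD4+ T cells and at 189 and 86.9 CPM in WT CD8+ T cells, and like Cd274 it was higher in replicate 1 of both groups. Pdcd1lg2 ran most like Ifih1 (0.979), the RNA sensor MDA5, Kctd17 (0.976), and Il21 (0.97), a helper T cell cytokine. Il21 was at 45.3 to 114 CPM in CD4+ and at 2.58 to 13.4 CPM in CD8+ T cells. Cd80 ran most like Tcf4 (0.962), the transcription factor E2-2, Cd22 (0.858), an inhibitory lectin best known from B cells, and Fxr2 (0.816), an RNA-binding protein. Cd22 was at 7.64 and 16.2 CPM in WT CD4+ T cells, at 31.1 and 40.4 CPM in STAT3ko, and at 41.7 and 43 CPM in STAT3ko PD-1ko, in libraries whose B cell markers summed to 1.67 to 2.46 CPM.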

How the data were processed

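RNA-Seq was done on 12 libraries of sorted donor T cells. According to the study's methods, single-end reads of 51 bases from a stranded mRNA kit were aligned to mm10 with STAR and assigned to RefSeq genes with HTSeq-count. The authors deposited a table of raw counts per gene and a table of RPKM values, which divide counts by exon length and library size. The labels also carry a protocol of another cell type, which was not used. The tests used edgeR (version 4.0.16; R version 4.3.3), namely filterByExpr (minimum count 10, minimum total count 15), TMM, and glmQLFTest. For genotypes the 6 libraries of each subset entered 1 fit, which tested 11959 genes in CD4+ and 12002 in CD8+ T cells, and the 12 libraries entered 1 fit of 12334 genes for subset comparisons and interactions. The threshold was 0.05 for p-values adjusted by Benjamini-Hochberg. Levels per length were computed from the counts, and the deposited RPKM values served the limma (version 3.58.1) alternatives on log2(RPKM + 1) and log2(RPKM + 0.1). Other alternatives were DESeq2 (version 1.42.0), its size factors, no filter, only the libraries compared, a fit of all 12 libraries, a replicate block, and leaving out each library. Plots were made with matplotlib 3.10.9 under Python 3.11.15. The fits were tested on simulated data.

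Libraries of 1 group differed beyond counting error over all genes (chi-square per degree of freedom 29.6 to 84.6). Whether replicate numbers pair libraries was read from the correlation of deviations from group means: 0.588, 0.583, and 0.646 between CD4+ and CD8+ T cells of 1 pool, and 0.63, 0.303, and 0.199 between genotypes in CD4+ but 0.651, 0.16, and 0.06 in CD8+ T cells. The study describes both subsets as coming from the same livers, and the serial numbers in the sample titles run in 1 block for each replicate number, over genotypes and subsets, without a word on what a block marks. The 4 genes and the gene lists were chosen with earlier results of these data known, so that no p-value is adjusted over a list. The text names the 4 members, Stat3, all CD28- and B7-family genes, of each other list up to 3 called genes in each direction by size, and the 3 genes most like each member by Pearson r of log2 CPM among genes whose log2 CPM averages 3 or more. A list gene that this rule would name is not reported here, for a reason unrelated to its values. Promoters are from RefSeq's table for GRCm38.p6.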

Additional observations from a re-analysis of the deposited data

How the results depend on the processing

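Over 48 results (4 genes, 12 comparisons) and 528 alternative values, 479 kept their direction and their side of the threshold, 9 calls were lost, 14 were gained, and 26 values changed sign, none of them a called one. With 2 libraries a group, a single library decides many of these values. The cause of the changes below was not tested.

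With the pool of recipients as replicate block, CD8+ against CD4+ T cells gained calls for Pdcd1 (0.5 in WT, 0.6 in STAT3ko, 1.04 in STAT3ko PD-1ko), Cd274 (-0.53, -0.69, -0.85), and Cd80 (-0.67 in STAT3ko PD-1ko), and the calls over all genes rose from 1294, 1187, and 511 to 2991, 3077, and 1774. In CD8+ T cells, where the deviations of libraries with the same number correlated at 0.651, 0.16, and 0.06 between genotypes, the replicate block gave 9, 2965, and 2932 calls over all genes, against 7, 2066, and 2017, and gained 1 call of the 4 genes, Cd274 in STAT3ko PD-1ko against WT (-0.76, adjusted p = 0.0497), which the fit of only its 4 libraries also called (-0.82, adjusted p = 0.0349). In CD4+ T cells the replicate block raised the calls over all genes from 40, 1538, and 1324 to 303, 3104, and 3105, and changed no call of the 4 genes. Pdcd1 in CD8+ against CD4+ STAT3ko PD-1ko T cells was called by DESeq2 and without the filter (0.98 in each), and Pdcd1lg2 in STAT3ko PD-1ko against STAT3ko CD4+ T cells was 0.02 with limma at either pseudocount, against -0.01.

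Leaving out 1 library gave these ranges of the log2 fold change where a call or a sign changed. For STAT3ko against WT they were -0.35 to 0.5 (Cd274, CD4+), -0.73 to 0.48 (Cd274, CD8+, around a value of 0), -0.08 to 0.17 (Pdcd1lg2, CD4+), and -0.02 to 0.75 (Cd80, CD8+). For STAT3ko PD-1ko against WT in CD4+ T cells they were -0.03 to 0.11 (Pdcd1lg2) and 0.78 to 1.51 (Cd80). For STAT3ko PD-1ko against STAT3ko in CD4+ T cells they were -3.46 to -2.4 (Pdcd1), -0.96 to -0.11 (Cd274), and -0.13 to 0.12 (Pdcd1lg2), and in CD8+ T cells -2.75 to -2.23 (Pdcd1), -1.3 to -0.09 (Cd274), and -0.24 to 0.27 (Cd80). For CD8+ against CD4+ T cells they were -0.38 to 0.47 (Cd80, WT), and 0.54 to 1.61 (Pdcd1) and -0.71 to -0.57 (Pdcd1lg2) in STAT3ko PD-1ko. For the interactions they were -0.07 to 0.25 (Pdcd1), -0.85 to 0.35 (Cd274), and -0.78 to 0.06 (Cd80) in STAT3ko against WT, -0.63 to 0.05 (Cd274) in STAT3ko PD-1ko against WT, and -0.04 to 1.02 (Pdcd1) and -0.69 to 0.52 (Cd274) in STAT3ko PD-1ko against STAT3ko.

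In STAT3ko against WT, 40 calls over all genes in CD4+ T cells became 264 with DESeq2, 165 without the filter, 164 with all 12 libraries, and 1 with the 4 compared, and 7 in CD8+ T cells became 201, 66, 20, and 0, or 3 and 1 with limma. In CD4+ T cells, all 12 libraries gave 2462 and 2299 calls in the comparisons of STAT3ko PD-1ko with WT and STAT3ko, and DESeq2 gave 2073 in the second. Interactions called 50 and 9 genes without the filter in the comparisons with STAT3ko PD-1ko. Without 1 library, calls ranged from 9 to 49, 62 to 676, and 0 to 1185 in CD4+ T cells (STAT3ko and STAT3ko PD-1ko against WT, STAT3ko PD-1ko against STAT3ko), from 0 to 2, 111 to 1107, and 2 to 1194 in CD8+ T cells, and between subsets from 611 to 819, 428 to 775, and 163 to 200.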
